A study of Danio rerio with 10 samples.

Results

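The 9 genes described here encode heat shock proteins and their constitutively expressed relatives: hspb1, hspa8, hspa5, hspa9, hspd1, hspe1, hsp90ab1, hsp90aa1.1 and hsp70l. They were taken from the deposited gene tables by symbol, each matched 1 row, and all 9 stayed among the 19998 genes kept of 25107. The list was chosen by family around hspb1, which was itself selected on its UMI levels across these embryos and cell classes, so hspb1 is given as values with no test. Single-cell libraries had been made from 10 whole embryos, 1 library per embryo: 4 wildtype, 3 dact1-/-;dact2-/- compound mutants (called dact1/2 mutant here) and 3 gpc4-/- mutants (gpc4 mutant). The study's methods give Tubingen or AB as the source of its lines, without saying which embryos came from which. The labels place all of the embryos at the 3 somite stage, whereas the study's methods state 4 somites. dact1 and dact2 encode Dishevelled-binding scaffold proteins and gpc4 a cell surface glypican, and the mutants had been recognised by their truncated body axis. The study states that the embryos could not be genotyped, and that they clustered well by group on the most variable genes. No group received a heat shock or a drug.

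Chaperones of the Hsp70 family bind unfolded stretches of protein and release them in cycles of ATP hydrolysis, Hsp90 acts later on a set of client proteins such as kinases, receptors and myosin, and the Hsp60 chaperonin encloses a protein while it folds. Small heat shock proteins such as Hspb1 (Hsp27) hold unfolding proteins without ATP and also bind actin filaments and other parts of the cytoskeleton. Each compartment has its own set: Hspa8 (Hsc70), Hsp90ab1, Hsp90aa1.1 and Hsp70l work in the cytosol, Hspa5 (BiP) in the endoplasmic reticulum (ER), and Hspa9 (mortalin), Hspd1 (Hsp60) and Hspe1 (Hsp10) in mitochondria. In zebrafish, Hsp90aa1.1 is known as the muscle isoform that, with the myosin chaperone Unc45b and the methyltransferase Smyd1b, is needed to assemble thick filaments.

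A total of 16449 cells passed quality control, with 10168109 to 18839132 unique molecular identifiers (UMIs, 1 per captured transcript) per embryo and a median of 4221 to 11027 UMIs per cell. Levels below are CPM, the UMIs of a gene per 1000000 UMIs summed over the kept cells of 1 embryo. These are 3' tags that were not scaled by transcript length, so they were compared between embryos and cell classes but not between genes. The cells fell into 18 clusters that were named from marker genes, from neural-like to germ cell-like, and 29 barcodes occurred in more than 1 library (58 of the kept cells). Wildtype replicate 1 stood apart from the other wildtype embryos. Leaving it out raised the number of genes that passed the threshold between dact1/2 mutants and wildtype from 6 to 312, so every comparison with wildtype is given with and without it. A gene was called changed at an adjusted p under 0.1 (edgeR quasi-likelihood test, Benjamini-Hochberg over all genes tested, written "edgeR adjusted p" below) together with an absolute log2 fold change above 0.58.

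hspb1 separated wildtype replicate 1 from the other wildtype embryos and, at a lower level, separated those from the mutants. Whole-embryo levels were 4486 CPM in wildtype replicate 1, 943 CPM in replicate 2, 863 CPM in replicate 3 and 935 CPM in replicate 4. The dact1/2 mutants had 1679, 1183 and 1588 CPM and the gpc4 mutants 1405, 1428 and 1999 CPM. All 6 mutants therefore lay above wildtype replicates 2, 3 and 4 and below replicate 1, and the dact1/2 and gpc4 mutants overlapped. Relative to the mean of wildtype replicates 2, 3 and 4, hspb1 was 4.91-fold in wildtype replicate 1, 1.62-fold in the mean dact1/2 mutant and 1.76-fold in the mean gpc4 mutant.

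**Figure D1:**
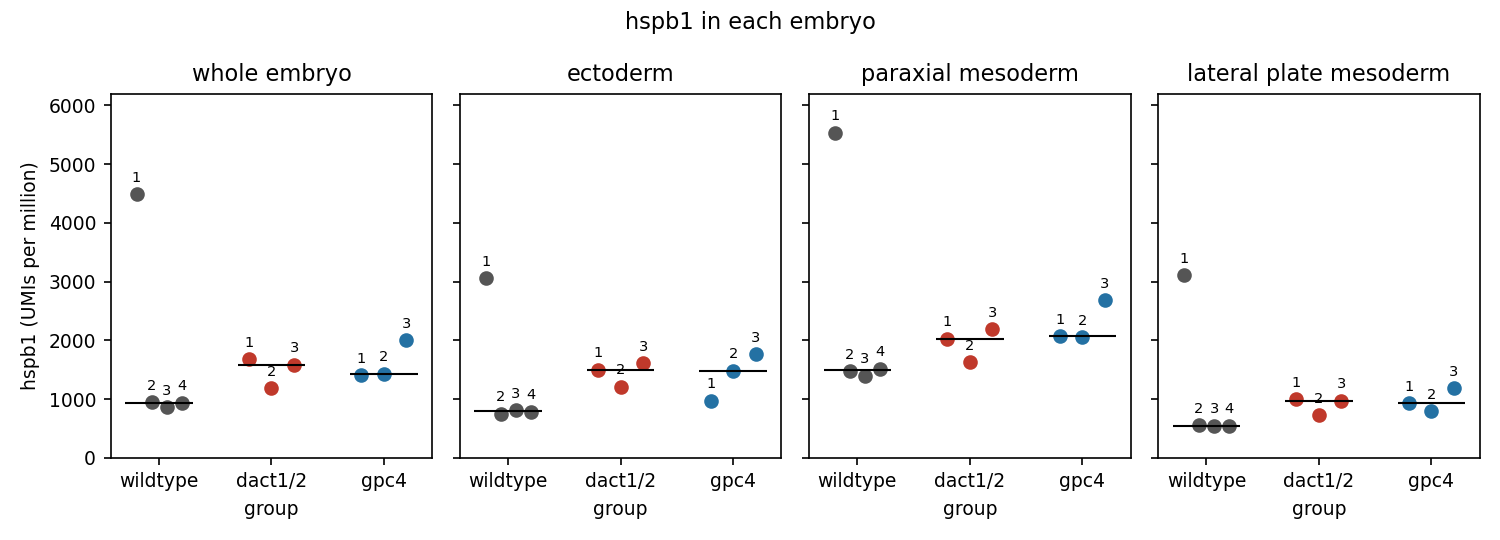
hspb1 in CPM (vertical axis) in each embryo, for whole embryos and for the 3 cell lineages; points are embryos numbered by replicate and the line is the group median. Wildtype replicate 1 is the highest point in every panel (4486 CPM in whole embryos), and wildtype replicates 2, 3 and 4 lie below all 6 mutants.

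The same order was seen in each of the 3 lineages into which clusters had been merged. In ectoderm (neural crest-like, neural-like and neural plate/spinal cord-like clusters) hspb1 was at 3054 CPM in wildtype replicate 1 and 752, 813 and 780 CPM in the other wildtype embryos, at 1496, 1211 and 1612 CPM in dact1/2 mutants, and at 971, 1478 and 1766 CPM in gpc4 mutants. In paraxial mesoderm (adaxial-like, presomitic mesoderm-like and somite-like cells) wildtype replicate 1 had 5536 CPM and replicates 2, 3 and 4 had 1471, 1399 and 1517 CPM, against 1629 to 2192 CPM in dact1/2 mutants and 2050 to 2679 CPM in gpc4 mutants. In lateral plate mesoderm wildtype replicate 1 had 3104 CPM and the other wildtype embryos 543 to 555 CPM, against 726 to 995 CPM in dact1/2 mutants and 791 to 1182 CPM in gpc4 mutants. The 6 mutants thus lay between wildtype replicate 1 and the other 3 wildtype embryos in every lineage. Among genes with a mean of at least 20 CPM, this order (6 mutants below wildtype replicate 1 and above the other 3) was found for 90 of 4981 genes in whole embryos (1.81%), and for 58 of 4700 genes in ectoderm, 34 of 4718 in the paraxial and 55 of 5077 in the lateral plate mesoderm. All 6 mutants lay above wildtype replicates 2, 3 and 4, wherever replicate 1 lay, for 164 of these genes in whole embryos (3.29%). In ectoderm, paraxial and lateral plate mesoderm this held for 118, 104 and 132 genes. Ranked by the ratio of wildtype replicate 1 to the other wildtype embryos, hspb1 was number 6 in whole embryos and number 15, 11 and 11 in the lineages.

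The fitted fold change of hspb1 against wildtype depended on that 1 embryo. With all 4 wildtype embryos it was -0.20 (SE 0.61) on the log2 scale in dact1/2 mutants and -0.12 (SE 0.61) in gpc4 mutants. Without wildtype replicate 1 it was 0.81 (SE 0.14) and 0.88 (SE 0.16). hspb1 was selected on its levels in these embryos, and replicate 1 was left out with its values known. The SEs therefore describe the fits and are no test. In ectoderm the values were 0.19 and 0.13 with all wildtype embryos and 0.94 and 0.88 without replicate 1. In paraxial mesoderm the dact1/2 value went from -0.23 to 0.48 when that embryo was left out, and the gpc4 value from -0.03 to 0.68. In lateral plate mesoderm the corresponding values went from -0.32 to 0.79 and from -0.26 to 0.85. Between the mutants the log2 difference (dact1/2 over gpc4) was -0.08 (SE 0.20).

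Single cells showed the same order when depth was made equal. After each cell had been thinned to 1500 UMIs, hspb1 was detected in 96.6% of cells of wildtype replicate 1, with a mean of 7.09 UMIs per cell. In wildtype replicates 2, 3 and 4 it was detected in 62.4%, 63.6% and 63.4% of cells, with a mean of 1.39 to 1.49 UMIs. The mutants lay between them, at 74.2% to 82.6% in dact1/2 and 74.2% to 88.2% in gpc4 embryos. Without thinning the shares ran from 85.9% to 100%. No class in these embryos was known to lack hspb1, so a background share from free RNA could not be set, and the lowest share by class was 45.6% of hatching gland-like cells after thinning.

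Over cell classes, hspb1 was highest in the growing posterior end of the embryo. Class levels describe rather than test, since the members were among the genes clustered. Without wildtype replicate 1 the wildtype means were 2736 ± 66.3 CPM (SD, n = 3) in tail bud-like cells, 1875 ± 28.3 CPM in presomitic mesoderm-like and 1752 ± 168 CPM in adaxial-like cells, and 169 ± 19.1 CPM in hatching gland-like cells, the lowest class. Of the 15 steps between neighbours in this order, 6 exceeded the larger SD of the pair, among them the step below the tail bud-like and the step below the adaxial-like cells. With all 4 wildtype embryos the tail bud-like mean was 4123 ± 2775 CPM, and 0 of 15 steps exceeded the SD. In tail bud-like cells the embryos had 8284 CPM in wildtype replicate 1, 2662 to 2789 CPM in the other wildtype embryos, 2783 to 4269 CPM in dact1/2 mutants and 3742 to 4401 CPM in gpc4 mutants. The dact1/2 mutants there overlapped wildtype replicates 2, 3 and 4, and the gpc4 mutants lay between those and replicate 1.

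The excess in wildtype replicate 1 was spread over all classes measured. It was the highest of the 10 embryos for hspb1 in 16 of 17 classes (it had under 10 pronephros-like cells, which left that class out), at 3.03 to 13.8 times the mean of the other wildtype embryos, with a median of 5.40 over classes. The largest ratio was in hatching gland-like cells, with 2344 CPM against 149 to 187 CPM. In endoderm-like cells, which had the second highest level of that embryo, it had 8013 CPM against 848 to 1359 CPM. The mutants with at least 10 cells were above wildtype replicates 2, 3 and 4 in 14 of 17 classes, and they overlapped them in adaxial-like, endoderm-like and tail bud-like cells. The classes share their embryos, so they are not separate observations. The share of all genes with this order by class is not given here. In the hatching gland-like class hspb1 varied among mutants, from 260 to 1302 CPM in gpc4 embryos and 290 and 527 CPM in the 2 dact1/2 embryos with enough cells.

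**Figure D2:**
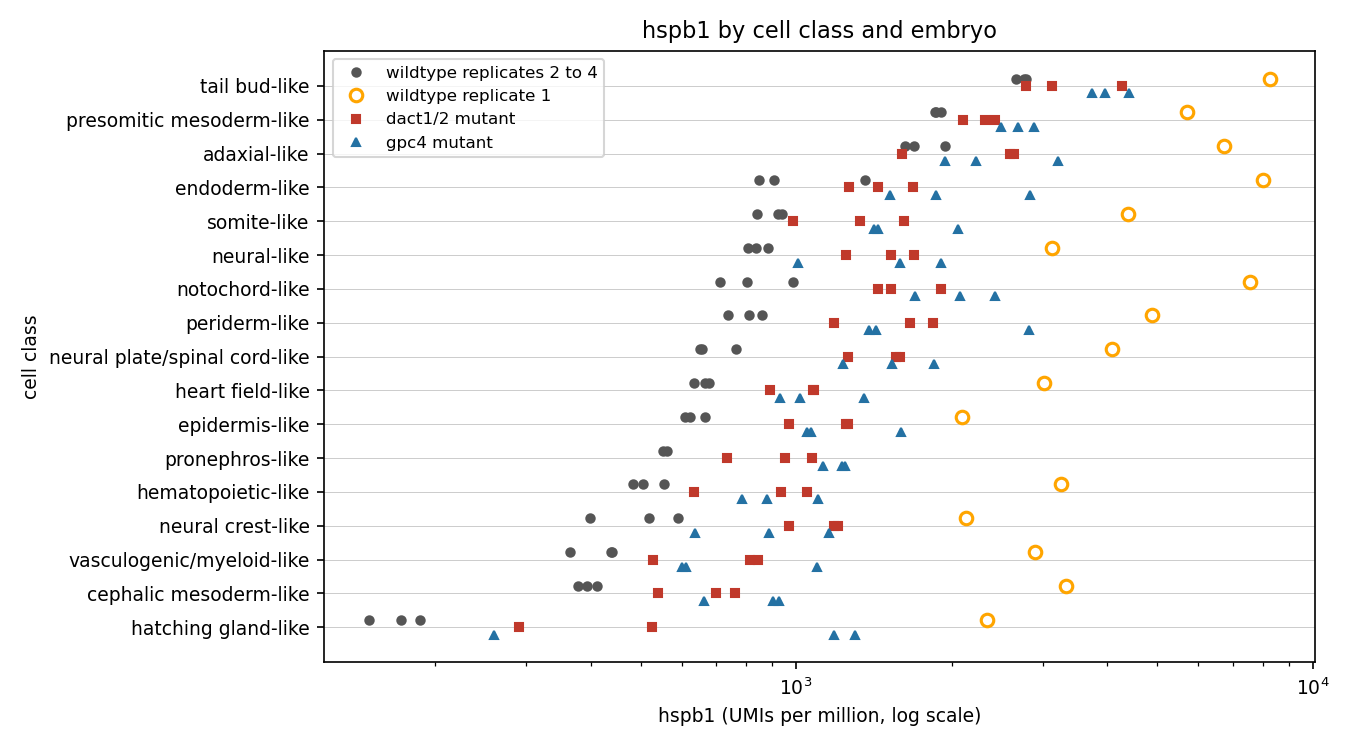
hspb1 in CPM (horizontal log axis) by cell class, in each embryo with at least 10 cells of the class; grey, wildtype replicates 2 to 4; open orange, wildtype replicate 1; red squares, dact1/2 mutants; blue triangles, gpc4 mutants. Wildtype replicate 1 lies to the right of every other embryo in all 16 classes where it has a point, and the grey points run from 2736 CPM on average in tail bud-like to 169 CPM in hatching gland-like cells.

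The genes whose level over the 10 embryos was most like that of hspb1 were lpar2a, ved, vox, foxd3 and ddx47. They had the smallest root mean square difference in log2 CPM among 4980 genes, 0.24 for lpar2a (a lysophosphatidic acid receptor) to 0.32 for ddx47 (an RNA helicase). ved and vox encode ventral homeobox repressors, and vox had 381 CPM in wildtype replicate 1, 79.0 to 120 CPM in the other wildtype embryos and 89.1 to 150 CPM in mutants. Over the 17 cell classes of wildtype embryos the genes most like hspb1 were nrarpa, a feedback inhibitor of Notch, hoxb6b, spry2, a feedback inhibitor of receptor tyrosine kinases, hoxa9a and cdh2 (N-cadherin), with Pearson r of log2 means from 0.83 to 0.87. These points share their libraries, and the likeness is a description.

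None of the other 8 genes passed the threshold in any comparison. Of 8 tested in whole embryos of dact1/2 mutants against wildtype, 0 were called by edgeR (0.0415% of all 14461 genes were called), 0 had an unadjusted p under 0.05, and DESeq2 also called 0. In gpc4 mutants against wildtype 0 of 7 were called (0.119% of all genes), and between dact1/2 and gpc4 mutants 0 of 7 (2.04% of all genes, and 3.56% with the shared replicate number as a block, a fit in which 503 rather than 288 genes were called), with 1 of 7 at an unadjusted p under 0.05. In the lineages 0 of 7 were called each time, beside 0.077% and 0.116% of all genes in ectoderm, 0.0107% and 0.11% in paraxial mesoderm and 0.0397% and 0.0983% in lateral plate mesoderm (dact1/2, then gpc4). Unadjusted p-values under 0.05 were reached by 0 and 0 genes in ectoderm, 0 and 1 in paraxial mesoderm and 1 and 2 in lateral plate mesoderm. Leaving out wildtype replicate 1 still called 0 of the 8 genes, while the background rose to 2.21% and 2.41% of genes in whole embryos, 1.78% and 1.96% in ectoderm, 1.07% and 1.9% in paraxial mesoderm and 1.81% and 1.86% in lateral plate mesoderm (dact1/2, then gpc4).

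**Figure D3:**
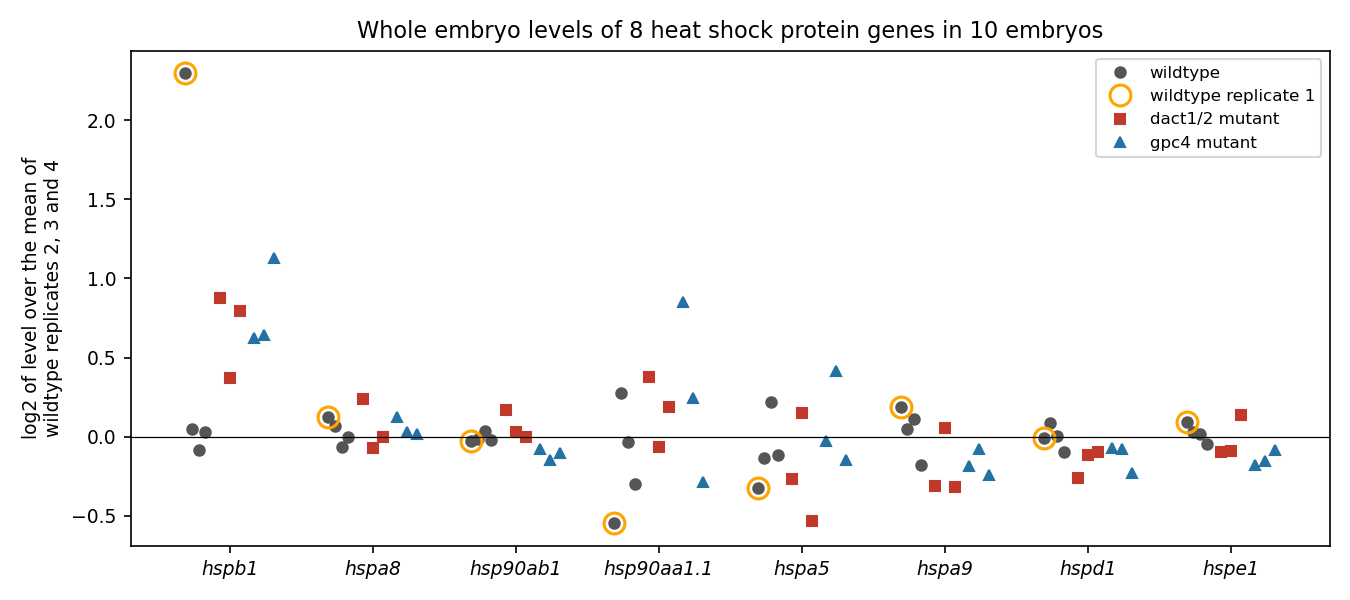
Whole-embryo level of 8 of the 9 genes in each embryo, as log2 of its ratio to the mean of wildtype replicates 2, 3 and 4 (vertical axis; hsp70l, with 97 UMIs in all, is left out); grey, wildtype, with replicate 1 circled; red squares, dact1/2 mutants; blue triangles, gpc4 mutants. hspb1 of wildtype replicate 1 lies at 4.91-fold, while hspa8, hsp90ab1, hspd1 and hspe1 stay close to 0 in all 10 embryos.

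Among the cytosolic chaperones, hspa8 and hsp90ab1 were abundant and nearly level between embryos. hspa8, the constitutive Hsp70, ran from 2437 to 3020 CPM over the 10 embryos, a 1.24-fold range. Wildtype embryos had 2792, 2677, 2441 and 2549 CPM, inside the range of the mutants. Its log2 fold changes in the 9 comparisons lay between 0.04 and 0.12, with SE of at most 0.13. By class its wildtype means spanned 1.5-fold, the smallest span of the 9 genes. They ran from 1942 ± 283 CPM (SD, n = 4) in notochord-like to 2914 ± 186 CPM in hematopoietic-like cells, and 0 of 15 neighbour steps exceeded the SD. After thinning, an hspa8 UMI was found in 96.3% to 98.3% of cells of each embryo.

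hsp90ab1, the constitutive cytosolic Hsp90, ran from 6538 to 8169 CPM, a 1.25-fold range. The 4 wildtype embryos had 7110, 7172, 7443 and 7142 CPM, the dact1/2 mutants 8169, 7409 and 7233 CPM and the gpc4 mutants 6871, 6538 and 6763 CPM. Every gpc4 mutant was thus below every dact1/2 mutant and every wildtype embryo (log2 -0.05 against wildtype, SE 0.09, edgeR adjusted p = 0.91). The share of all genes with this order is not given here. Between the mutants the log2 difference (dact1/2 over gpc4) was 0.22 (SE 0.09, edgeR adjusted p = 0.32). With the replicate number as a block it was 0.22 (SE 0.05, edgeR adjusted p = 0.093), below the fold required in both fits. By class it was highest in neural crest-like (8409 ± 441 CPM, SD, n = 4), neural-like (8388 ± 356 CPM) and neural plate/spinal cord-like cells (8170 ± 441 CPM), which did not differ beyond their spread, and lowest in adaxial-like cells (3362 ± 718 CPM), with the step down from hatching gland-like cells (5235 ± 801 CPM) beyond the spread.

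hsp90aa1.1, the muscle Hsp90, was highest in the class where hsp90ab1 was lowest. It was at 5879 ± 822 CPM (SD, n = 4) in wildtype adaxial-like cells, the slow muscle precursors beside the notochord, at 1392 ± 348 CPM in somite-like and 623 ± 132 CPM in presomitic mesoderm-like cells, and at 55.6 CPM or less in each of the other classes measured in at least 3 wildtype embryos. The 3 steps at the top all exceeded the SD. After thinning to 1500 UMIs an hsp90aa1.1 UMI was found in 94.6% of 331 adaxial-like cells (median depth 5570 UMIs before thinning), against 2.22% of 1712 heart field-like cells (median depth 4920 UMIs) as a class outside skeletal muscle. Over 17 classes the log2 levels of hsp90aa1.1 and hsp90ab1 had a Pearson r of -0.64, as a description of means that share their libraries. Its partners in myosin folding had the same top class: unc45b had 1914 ± 312 CPM in adaxial-like and 517 ± 49.9 CPM in somite-like cells, and smyd1b 387 ± 38.7 CPM and 49.7 ± 6.32 CPM. Both were among the markers used to name the adaxial-like class. The neighbouring paralog hsp90aa1.2 did not share this: with 5349 UMIs in all, it was highest in hematopoietic-like (159 ± 99.6 CPM) and neural plate/spinal cord-like cells (149 ± 98 CPM). Reads that both paralogs share may have been split or dropped in the counting, so the level of each is uncertain to that extent.

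In whole embryos hsp90aa1.1 was at 193, 341, 275 and 229 CPM in wildtype, at 367, 270 and 321 CPM in dact1/2 and at 509, 334 and 231 CPM in gpc4 embryos. The groups overlapped, and the log2 fold changes were 0.40 (SE 0.20, edgeR adjusted p = 0.68) and 0.50 (SE 0.27, edgeR adjusted p = 0.66). Summed, the 17 adaxial markers had 845 to 1190 CPM in wildtype, 1312 to 2186 CPM in dact1/2 and 1318 to 2677 CPM in gpc4 embryos. Adaxial-like cells made up 1.27% to 1.61%, 1.40% to 2.7% and 1.97% to 3.52% of cells in the same order. hsp90aa1.1 and the adaxial-like share were both highest in gpc4 replicate 1, at 509 CPM and 3.52%. In other embryos they parted. hsp90aa1.1 was at 231 CPM in gpc4 replicate 3, with 3.22% adaxial-like cells, and at 341 CPM in wildtype replicate 2, with 1.45%. Whether its level goes with the share of these cells was not tested. In whole-embryo sums more cells of a type and more RNA per cell cannot be told apart. Within the adaxial-like class hsp90aa1.1 was at 5216 to 7054 CPM in wildtype, 4415 to 6341 CPM in dact1/2 and 3671 to 6661 CPM in gpc4 embryos, so that the 3 groups overlapped. In paraxial mesoderm it was at 822 to 1779 CPM in wildtype, 1325 to 1823 CPM in dact1/2 and 1078 to 2070 CPM in gpc4 embryos, with log2 fold changes of 0.42 (SE 0.25) and 0.38 (SE 0.29), neither called.

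Among whole embryos and the 3 lineages, the largest fitted fold changes of hsp90aa1.1 were in lateral plate mesoderm, where it was scarce. Wildtype embryos had 20.2, 7.74, 29.4 and 13.3 CPM there, dact1/2 mutants 28.9, 25.8 and 40.3 CPM, and gpc4 mutants 60.3, 37.5 and 22.3 CPM, from 22 to 149 UMIs per embryo. Both mutant groups overlapped wildtype replicate 3. The log2 fold change was 1.22 (SE 0.43, edgeR adjusted p = 0.56) in gpc4 mutants and 0.92 (SE 0.38, edgeR adjusted p = 0.82) in dact1/2 mutants. Without wildtype replicate 1 these became 1.3 (SE 0.41, edgeR adjusted p = 0.17) and 0.99 (SE 0.34, edgeR adjusted p = 0.18), still not called. The 17 adaxial markers summed to 298 to 691 CPM in wildtype lateral plate mesoderm, 514 to 568 CPM in dact1/2 and 473 to 688 CPM in gpc4 embryos, ranges that overlap. In periderm-like cells, a covering epithelium, hsp90aa1.1 was at 42.4 ± 38.2 CPM (SD, n = 4) in wildtype, 116 ± 20.3 CPM (n = 3) in dact1/2 and 167 ± 48.9 CPM (n = 3) in gpc4 embryos. That difference was not tested, and the class was picked from 17. All mutants with enough cells lay above wildtype replicates 2, 3 and 4 in 2 of the 17, and the share of all genes with this order by class is not given here. In ectoderm it was at 9.57 to 52.5 CPM in wildtype and 24.3 to 47.6 CPM in mutants, overlapping. The log2 fold change in ectoderm of gpc4 mutants was 0.28 (SE 0.53) with all wildtype embryos and -0.02 (SE 0.35) without replicate 1.

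**Figure D4:**
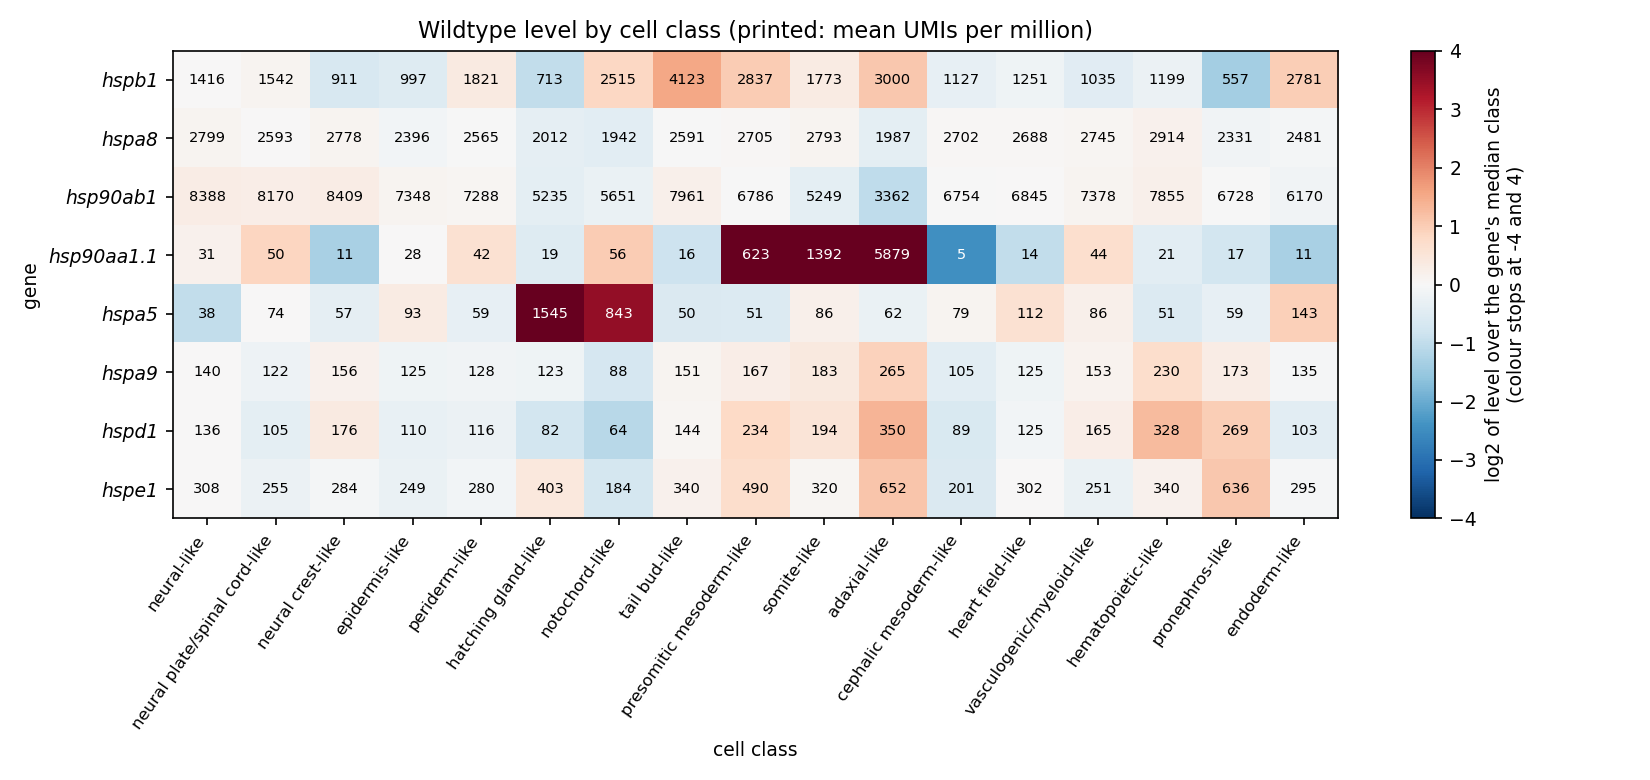
Wildtype level of 8 genes by cell class; the printed number is the mean CPM over wildtype embryos with at least 10 cells of the class, and the colour its log2 ratio to the median class of that gene, as the colour bar shows. hsp90aa1.1 stands out in adaxial-like (5879 CPM), somite-like and presomitic mesoderm-like cells, hspa5 in hatching gland-like (1545 CPM) and notochord-like cells, while hspa8 is nearly even.

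hsp70l, a heat-inducible cytosolic Hsp70, was close to absent. All 16449 cells together held 97 UMIs, of which the embryos had 1, 3, 14 and 1 in wildtype, 25, 26 and 7 in dact1/2 and 8, 10 and 2 in gpc4. Of these 40 were in adaxial-like cells, where 31 of 331 cells (9.37%, exact Clopper-Pearson 95% interval 6.45% to 13.0%, counting error only) held at least 1 UMI. Heart field-like cells, at a median depth of 4920 UMIs against 5570, had 3 of 1712 (0.175%). The adaxial-like UMIs were at most 4 in a cell. In dact1/2 mutants against wildtype, the only comparison in which it passed the filter on low counts, the log2 fold change was 1.72 (SE 0.76, edgeR adjusted p = 0.63) with whole-embryo levels of 0.0677 to 1.04 CPM and 0.614 to 1.46 CPM, which overlapped. The other inducible genes of the family were also rare: hsp70.1 had 37 UMIs, hsp70.2 59 UMIs and hspa1b 31 UMIs in all kept cells. hsp70.3 had 262 UMIs, more than the 97 of hsp70l. These near-identical copies may share reads.

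hspa5, the ER chaperone BiP, was highest in hatching gland-like and notochord-like cells. Its wildtype level was 1545 ± 276 CPM (SD, n = 4) in hatching gland-like cells, which store the enzymes that open the chorion, 843 ± 221 CPM in notochord-like cells, which lay down a collagen sheath, and 143 ± 54.6 CPM in endoderm-like cells, down to 37.5 ± 6.85 CPM in neural-like cells. The steps below the hatching gland-like and the notochord-like class exceeded the SD. Of 23 genes of the ER chaperone and unfolded protein response list with a mean of at least 20 CPM over wildtype classes, 18 (78.3%) were highest in hatching gland-like cells, beside 522 of 5223 genes in all (9.99%). They included hsp90b1, the ER Hsp90 (454 CPM against a median class of 17.9 CPM), hyou1, a nucleotide exchange factor for BiP (1011 against 57.0 CPM), calr3b, a calreticulin (13259 against 105 CPM), and xbp1, a transcription factor of the unfolded protein response (4239 against 206 CPM), which was also a marker used to name the class. The 3 that peaked in notochord-like cells included canx (calnexin, 552 against 228 CPM).

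In hatching gland-like cells hspa5 was at 1338 to 1928 CPM in wildtype, 1663 and 1696 CPM in the 2 dact1/2 embryos with enough cells and 969 to 1877 CPM in gpc4 embryos. In notochord-like cells wildtype replicates 1 to 4 had 517, 939, 1006 and 907 CPM, dact1/2 mutants 554, 828 and 690 CPM and gpc4 mutants 527, 488 and 678 CPM. The mutants were all below wildtype replicates 2, 3 and 4 there, and 1 of 6 was below replicate 1. This class was picked from 17. Neither the share of all genes nor the number of classes with this order is given here. The direction was the other in epidermis-like cells of gpc4 mutants, with 169 ± 1.68 CPM (SD, n = 3) against 92.9 ± 28.9 CPM (n = 4) in wildtype. Over 17 classes compared, the gpc4 mean of hspa5 was above the mean of wildtype replicates 2, 3 and 4 in 14. The dact1/2 mean was above it in 12, so the lower level in notochord-like cells was the less common direction. In 0 of the 17 did all mutants lie above those wildtype embryos, and these differences were not tested.

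hspa5 was nearest to a call in lateral plate mesoderm of gpc4 mutants, with 115, 135 and 97.2 CPM against 81.0, 91.5, 90.9 and 84.7 CPM in wildtype. The 3 gpc4 mutants lay above all 4 wildtype embryos. The log2 fold change was 0.44 (SE 0.13, edgeR adjusted p = 0.50; unadjusted p = 0.0093 in this fit over 10171 genes), and 0.41 (SE 0.12, edgeR adjusted p = 0.16) without wildtype replicate 1, under the fold required each time. dact1/2 mutants had 84.2, 103 and 85.3 CPM, overlapping wildtype. In paraxial mesoderm the gpc4 mutants, at 72.2, 108 and 69.3 CPM, were also above all 4 wildtype embryos (61.1 to 69.2 CPM), with a log2 fold change of 0.42 (SE 0.17, edgeR adjusted p = 0.52). For neither lineage is the share of all genes that separate gpc4 mutants from wildtype in this way given here. The whole-embryo levels overlapped between all groups, at 113 to 164 CPM in wildtype, 97.7 to 157 CPM in dact1/2 and 128 to 188 CPM in gpc4 embryos.

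**Figure D5:**
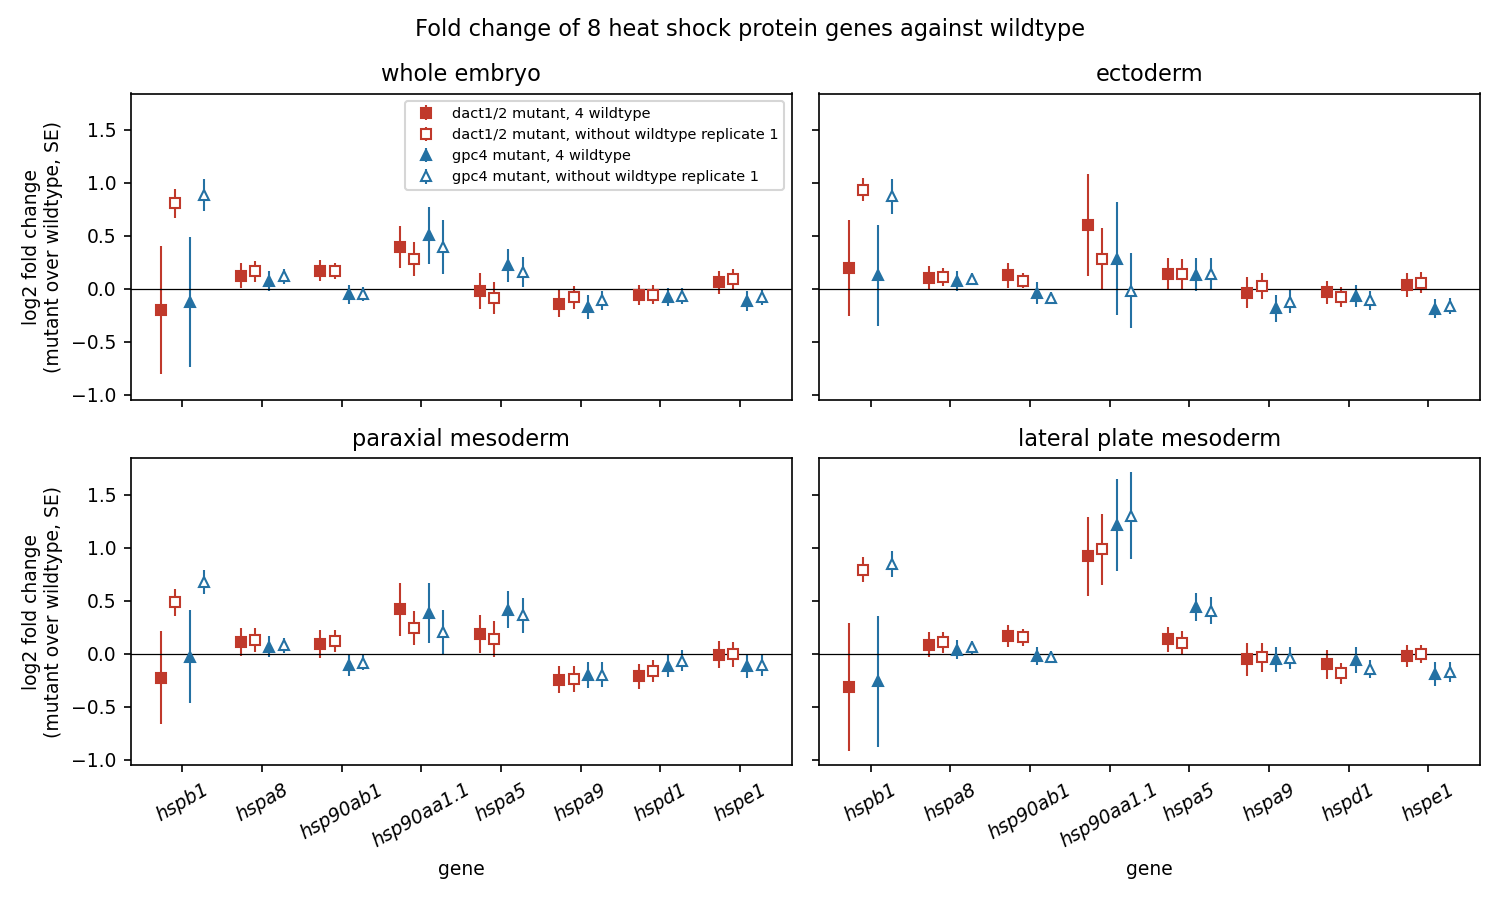
Log2 fold change against wildtype (vertical axis, bars SE) of 8 genes in whole embryos and 3 lineages; red squares, dact1/2 mutants; blue triangles, gpc4 mutants; filled, all 4 wildtype embryos; open, without wildtype replicate 1. hspb1 moves most with that embryo, from -0.20 to 0.81 in whole dact1/2 mutants, and the bars of hspb1 with all 4 wildtype embryos and of hsp90aa1.1 in ectoderm and lateral plate mesoderm are the widest.

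The 3 mitochondrial genes varied little between embryos and together between classes. Whole-embryo levels of hspa9, the mitochondrial Hsp70, were 159, 144, 150 and 123 CPM in wildtype, 112, 145 and 112 CPM in dact1/2 and 123, 132 and 118 CPM in gpc4 embryos, with 4 of 6 mutants below all 4 wildtype embryos. hspd1, the chaperonin Hsp60, was at 143 to 162 CPM in wildtype and 127 to 146 CPM in mutants. hspe1, its lid Hsp10, was at 303 to 333 CPM in wildtype and 276 to 344 CPM in mutants. For hspa9 and hspd1 both mutant groups overlapped wildtype. For hspe1 the 3 gpc4 mutants (276, 281 and 295 CPM) lay below all 4 wildtype embryos, and the dact1/2 mutants (292, 294 and 344 CPM) overlapped them. The log2 fold change of hspe1 in gpc4 mutants was -0.11 (SE 0.09, edgeR adjusted p = 0.80). In ectoderm the gpc4 mutants were again below all wildtype embryos for hspe1, at 249 to 257 CPM against 281 to 325 CPM (log2 -0.19, SE 0.09, edgeR adjusted p = 0.73). hspe1 was not called in either fit, in which 0.119% and 0.116% of all genes were called. Neither share counts the genes whose groups do not overlap, and that share is not given here. Their log2 fold changes in the 9 comparisons ran from -0.25 to 0.03 for hspa9, -0.21 to 0.01 for hspd1 and -0.19 to 0.17 for hspe1, with SE of at most 0.16. The smallest edgeR adjusted p of the 3 genes was 0.51, for hspe1 between the mutants.

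By class all 3 were high in adaxial-like cells and low in notochord-like cells of wildtype embryos. hspa9 was at 265 ± 72.3 CPM (SD, n = 4) in adaxial-like, 230 ± 33 CPM in hematopoietic-like and 87.9 ± 11.6 CPM in notochord-like cells, and hspd1 at 350 ± 113, 328 ± 59.9 and 63.6 ± 15.3 CPM. hspe1 was at 652 ± 304 CPM in adaxial-like, 636 ± 123 CPM (n = 2) in pronephros-like, 490 ± 33.8 CPM in presomitic mesoderm-like and 184 ± 34.3 CPM in notochord-like cells. The adaxial-like and the next class did not differ beyond the SD for any of the 3, from 12 to 33 adaxial-like cells per wildtype embryo. Over 17 classes the log2 levels of hspa9 and hspd1 had a Pearson r of 0.95, hspd1 and hspe1 of 0.73 and hspa9 and hspe1 of 0.72, as descriptions. hspd1 and hspe1, the 2 parts of the chaperonin, are direct neighbours in the RefSeq annotation of GRCz12tu. Adaxial-like cells of mutants had less of them on average: hspd1 was at 151 ± 43.9 CPM (SD, n = 3) in dact1/2 and 195 ± 44 CPM (n = 3) in gpc4 embryos, and hspe1 at 365 ± 15.8 and 362 ± 38.1 CPM, differences that were not tested and rest on few cells. The wildtype means include replicate 1, without which hspe1 was at 521 CPM in wildtype adaxial-like cells.

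Calls among related genes were more frequent when wildtype replicate 1 was left out and came mostly from the p53 and oxidative stress lists. Across the 9 comparisons with all wildtype embryos, 0 tests of the inducible heat shock response (17 of 18 genes found), small heat shock protein (7 of 13), Hsp70 and Hsp90 co-chaperone (37 of 39), chaperonin TRiC (8 of 8), mitochondrial chaperone (14 of 16), ER chaperone (36 of 36) and immediate early (31 of 33) lists passed by edgeR. In the p53 list 1 of 101 tests passed higher and 0 lower (0.99%), and in the oxidative stress list 3 of 160 passed higher and 1 lower (2.5%), beside 0.0107% to 2.04% of all genes over the 9 comparisons. Of these oxidative stress calls, 2 higher and 1 lower were between dact1/2 and gpc4 mutants. That fit holds no wildtype embryo and called 2.04% of all genes. Without wildtype replicate 1, in the 8 comparisons with wildtype, 6 of 87 p53 tests passed higher and 2 lower (9.2%), and 5 of 139 oxidative stress tests passed higher and 4 lower (6.47%), beside 1.07% to 2.41% of all genes. In that setting 3 of 255 ER tests passed higher, 2 of 108 mitochondrial tests lower, 1 of 98 inducible and 1 of 145 immediate early tests higher, and 0 in the other 3 lists. Repeated tests of 1 gene in several lineages share their embryos. The lists were chosen with earlier results of these data known, so these shares are descriptions and no test of a list. The 8 p53 calls were of 3 genes, and the oxidative stress calls in that setting were also of 3 genes (sqstm1, gpx4a and gpx1b). Without wildtype replicate 1, calr, an ER calcium-binding chaperone, was higher in gpc4 mutants in lateral plate (log2 1.19, SE 0.18, edgeR adjusted p = 0.0068) and paraxial mesoderm (1.14, SE 0.23, edgeR adjusted p = 0.048), and derl1, a part of the ER degradation machinery, in whole gpc4 embryos (0.60, SE 0.10, edgeR adjusted p = 0.043). dnaja3a, a mitochondrial co-chaperone of Hspa9, was lower in dact1/2 mutants in lateral plate mesoderm (-0.93, SE 0.19, edgeR adjusted p = 0.034) and in whole embryos (-0.62, SE 0.14, edgeR adjusted p = 0.076). hsbp1b, which encodes a heat shock factor binding protein, was higher in lateral plate mesoderm of dact1/2 mutants (0.62, SE 0.10, edgeR adjusted p = 0.013), and dusp2, of the immediate early list, in their ectoderm (1.52, SE 0.36, edgeR adjusted p = 0.061).

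In the p53 list ccng1 (cyclin G1) was higher in ectoderm of gpc4 mutants with all wildtype embryos (0.64, SE 0.10, edgeR adjusted p = 0.078) and without replicate 1 (0.69, SE 0.08, edgeR adjusted p = 0.0022). Without replicate 1, sesn1 (sestrin 1) was lower in whole dact1/2 embryos (-0.64, SE 0.09, edgeR adjusted p = 0.017) and rps27l, a ribosomal protein gene, higher in whole gpc4 embryos (0.62, SE 0.13, edgeR adjusted p = 0.061). In the oxidative stress list gpx1b, a glutathione peroxidase, was higher in ectoderm of dact1/2 mutants (2.12, SE 0.26, edgeR adjusted p = 0.039 with all wildtype embryos). Without wildtype replicate 1, sqstm1, an autophagy receptor, was lower in paraxial mesoderm of gpc4 mutants (-3.08, SE 0.24, edgeR adjusted p = 0.00021), and gpx4a, another glutathione peroxidase, was higher in their lateral plate mesoderm (1.07, SE 0.14, edgeR adjusted p = 0.0038). The summed immediate early and dissociation genes, which rise when cells are handled, were at 727 CPM in wildtype replicate 1 and 747 to 755 CPM in the other wildtype embryos, so that embryo had the lowest of the 4 values. In whole embryos the inducible heat shock list summed to 957 CPM in wildtype replicate 1 and 799 to 873 CPM in the other wildtype embryos. In ectoderm that embryo was not the highest, at 789 CPM against 709 to 815 CPM. Of that list, serpinh1b reached 1270 CPM in wildtype notochord-like cells. hsp70.1, hsp70.2, hsp70.3 and hspa1b, on the same list, held 31 to 262 UMIs each in all kept cells. The p53 list summed to 716 CPM in wildtype replicate 1 and 617 to 639 CPM in the other wildtype embryos. The dact1/2 mutants had 623 to 691 CPM of it and the gpc4 mutants 741 to 906 CPM. The chaperonin TRiC genes summed to 3173 CPM in wildtype replicate 1, 2701 to 2788 CPM in the other wildtype embryos and 2622 to 3013 CPM in mutants. Whether these levels have a part in the hspb1 values was not tested.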

How the data were processed

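The deposited UMI counts per gene and cell were made by the authors with Cell Ranger 6.1.0 on GRCz11 from 10x 3' version 3 libraries, and are filtered matrices with no normalization. Kept cells had at least 750 genes, at least 1500 UMIs, under 5% of them mitochondrial, and log10 gene number above 80% of log10 UMI number, as the study's methods describe: 16449 of 21980 barcodes, fewer than the study states. Genes found in under 1 of 3000 cells were removed. Doublets were neither called nor removed. Counts were normalized with sctransform 0.4.2 (Seurat 5.3.0, R 4.3.3), and 3000 variable genes, 40 components with each embryo's mean removed and Louvain resolution 0.3 gave 18 clusters. Of the 9 genes 6 were among the variable genes. Clusters were named "-like" from 265 of 275 marker symbols found, requiring at least 1 marker of the class among the top 10 genes and 3 detected, a rule set after the clusters were seen, so names may differ from the study's. The endoderm-like and cephalic mesoderm-like names rest on 1 marker each in the top 10.

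UMIs were summed per embryo and lineage and tested with edgeR 4.0.16 (filterByExpr, TMM, quasi-likelihood), with DESeq2 1.42.0 as an alternative. The scripts were tested on simulated data. SE is the log2 fold change over the square root of F. Tags of 1 embryo come from 1 library, so embryos are the replicates. The members, lists and rules were chosen with earlier results of these data known. All 9 genes are named in every comparison, and from each list up to 3 genes with the smallest p among those called. In dact1/2 against gpc4 mutants, same-numbered embryos deviated together from their group means (r 0.44, 0.54 and 0.26), and their number was used as a block in a second fit. Counting intervals cover counting error only. No sequences are shown.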

Additional observations from a re-analysis of the deposited data

Results flagged for a closer look

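A value was picked out where the highest or lowest of the 4 wildtype embryos lay so far from the nearest that the gap, divided by the range, exceeded Dixon's 95% critical value. Of the 8 genes other than hspb1, in whole embryos and 3 lineages, this was so in 4 of 32 groups of wildtype values. Chance gives about 1 in 20 for continuous values, and the groups share embryos. Apart from hspd1 in ectoderm, all of the flagged groups were of hsp70l. In ectoderm and lateral plate mesoderm its other wildtype embryos had no UMI, so any count in a single embryo was flagged. The rate of 1 in 20 does not hold there, and no excess can be read from the 4 groups. hspb1 was chosen for its levels in these embryos, so its gaps are a description and no test.

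For hspb1, wildtype replicate 1 had 4486 CPM in whole embryos (gap over range 0.978), 3054 CPM in ectoderm (0.973), 5536 CPM in paraxial mesoderm (0.972) and 3104 CPM in lateral plate mesoderm (0.995). hspd1, the mitochondrial chaperonin, stood out in ectoderm of wildtype replicate 3, where it was highest at 150 CPM with a gap over range of 0.840. hsp70l stood out in ectoderm (0.489 CPM) and paraxial mesoderm (4.64 CPM) of wildtype replicate 3 and in lateral plate mesoderm of replicate 2 (0.703 CPM), each from few UMIs.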

How the results depend on the processing

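None of the 8 genes other than hspb1 was called in any of the 130 alternative counts, and the sign of their log2 fold changes differed in 36 of 923 alternative values, none of them called. The number of all genes called was far less stable. The comparisons follow in the order whole embryo (dact1/2 against wildtype, gpc4 against wildtype, dact1/2 against gpc4), ectoderm, paraxial and lateral plate mesoderm (dact1/2, then gpc4). DESeq2 called 151, 194 and 462, then 50, 33, 65, 80, 26 and 50 genes. DESeq2 without wildtype replicate 1, chosen after seeing the data, called 397 and 485 in whole embryos, then 109, 112, 94, 140, 94 and 128. With no filter on low counts the lineages gave 27, 23, 184, 167, 13 and 27. A single fit of all 10 embryos gave 21, 72 and 58 in whole embryos, 23 in gpc4 ectoderm, 7 and 43 in paraxial mesoderm and 7 in dact1/2 lateral plate mesoderm. Clusters made without the 9 genes gave 2 in dact1/2 paraxial mesoderm.

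A replicate block gave 0, 1 and 503 in whole embryos, 0 and 6 in ectoderm, 2 in gpc4 paraxial mesoderm and 2 and 4 in lateral plate mesoderm. Against wildtype, the deviations of same-numbered embryos had r from -0.29 to 0.15. Whether any of these embryos were handled together cannot be read from this. The block against wildtype leaves out wildtype replicate 4, whose number no mutant has. Leaving out each embryo in turn gave 0 to 312, 2 to 341 and 93 to 330 genes in whole embryos, 0 to 186 and 1 to 199 in ectoderm, 1 to 96 and 1 to 169 in paraxial and 1 to 181 and 2 to 186 in lateral plate mesoderm, the highest against wildtype always without wildtype replicate 1. Between the mutants 94, 93 and 123 genes were called without dact1/2 replicate 1, 2 and 3, and 177 without gpc4 replicate 1.

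hspb1 changed direction. Leaving out each embryo, its log2 fold change ran from -0.43 to 0.81 and -0.35 to 0.88 in whole embryos, -0.18 to 0.15 between mutants, -0.0022 to 0.94 and -0.087 to 0.88 in ectoderm, -0.42 to 0.48 and -0.22 to 0.68 in paraxial, and -0.56 to 0.79 and -0.50 to 0.85 in lateral plate mesoderm. DESeq2 without wildtype replicate 1 gave 0.83 and 0.89, 0.49 and 0.67, and 0.80 and 0.86 in whole embryos, paraxial and lateral plate mesoderm. The replicate block gave 0.038 and 0.13 in whole embryos, 0.093 in gpc4 paraxial and 0.036 in gpc4 lateral plate mesoderm. The cause was not tested. Without wildtype replicate 1 the top class became hematopoietic-like for hspd1 and pronephros-like for hspe1, and without replicate 3 or 4 neural-like for hsp90ab1. hsp70l, with 97 UMIs in all, passed the filter on low counts in 1 of 9 comparisons.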

Other observations

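The barcodes that quality control removed also carried the pattern of hspb1. Relative to the kept cells of the same embryo, the level of hspb1 in removed barcodes was 0.82 to 1.24 times as high, with a median of 1.07, and it was higher in 7 of 10 embryos. For wildtype replicate 1 it was 4858 CPM in removed barcodes against 4486 CPM in kept cells. hspa8 had a median ratio of 0.94. hsp90aa1.1 had a median of 0.51, from 0.26 to 1.66. Among small heat shock genes other than hspb1, hspb8, which encodes a partner of the co-chaperone Bag3 in other vertebrates, had 2438 UMIs, and hspb9, hspb11, cryabb, hspb6, hspb7 and hspb15 had 7 to 159 UMIs each in all kept cells.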
